A study of Mus musculus with 7 samples.

Results

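The let-7 and miR-98 family was followed through 7 small RNA libraries of mouse testis. Its members were the listed miRNAs whose name begins with let-7 or is miR-98, which gave 11 of the 331 mature miRNAs in the deposited table. Of these, 9 come from the 5p arm of their hairpin (mmu-let-7f-5p, mmu-let-7a-5p, mmu-let-7c-5p, mmu-let-7i-5p, mmu-let-7e-5p, mmu-let-7g-5p, mmu-let-7b-5p, mmu-miR-98-5p and mmu-let-7d-5p) and were taken as the family, and 2 come from the 3p arm (mmu-let-7d-3p and mmu-let-7f-2-3p) and were kept as a check. All 11 were detected in all 7 libraries. The study cultured testis explants of prepuberal CD1 mice and compared them with uncultured testes of the same outbred strain. T6 and T10 were testes of 6.5 and 10.5 dpp (days post-partum) mice before culture, for which other label fields give 6 and 10 days, and TAD was the testis of a 2 month old adult. T6-12K and T6-12A were 6.5 dpp explants, and T10-12K and T10-12A were 10.5 dpp explants, kept for 12 days on agarose at the boundary of medium and gas, at 34 ºC and 5% CO2. The K cultures received KSR, a replacement for serum, and the A cultures received AlbuMAX I, an albumin preparation rich in lipids. Each condition had 1 library, and for the cultures the study describes RNA from a pair of pooled explants, so that no difference below was tested against variation between animals or cultures, and all intervals cover counting error only.

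let-7 miRNAs are small regulators that repress messenger RNAs through their 5′ end, the seed, and they are known for rising as cells leave a proliferative, undifferentiated state. Their maturation is blocked by the RNA-binding proteins LIN28A and LIN28B, which bind let-7 precursors, and LIN28A is known from undifferentiated spermatogonia of the mouse testis. Members with one seed are thought to share most targets, among them Lin28a itself, Hmga2 and Ras genes, whereas the separate genes of the family allow each member its own level.

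The mature sequences are shown because they define the family and because they show how little separates its members in an alignment. All 11 members matched a RefSeq mature sequence (GRCm38.p6), as did 288 of the 331 listed miRNAs. In the following lines, written 5′ to 3′, the capitals mark the seed, bases 2 to 8.
mmu-let-7f-5p: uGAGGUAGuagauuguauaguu
mmu-let-7a-5p: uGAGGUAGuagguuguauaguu
mmu-let-7c-5p: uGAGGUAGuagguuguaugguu
mmu-let-7i-5p: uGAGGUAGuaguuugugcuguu
mmu-let-7e-5p: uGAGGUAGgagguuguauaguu
mmu-let-7g-5p: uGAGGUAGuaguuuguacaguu
mmu-let-7b-5p: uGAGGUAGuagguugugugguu
mmu-miR-98-5p: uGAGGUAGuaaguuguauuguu
mmu-let-7d-5p: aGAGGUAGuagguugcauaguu
mmu-let-7d-3p: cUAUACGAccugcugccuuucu
mmu-let-7f-2-3p: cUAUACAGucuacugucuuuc
All 9 members of the 5p arm were 22 nt long and carried the seed GAGGUAG. Counted from 1 at the 5′ end, with the base of let-7a-5p first, let-7f-5p differed from let-7a-5p by G12A, let-7c-5p by A19G and let-7e-5p by U9G. The others differed at 2 positions (let-7g-5p by G12U and U18C, let-7b-5p by A17G and A19G, miR-98-5p by G11A and A19U, let-7d-5p by U1A and U16C) or at 4 (let-7i-5p by G12U, A17G, U18C and A19U). How reads that fit several members were counted is not given in the sources used here, so the split between let-7a-5p and its neighbours at 1 difference is uncertain.

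The family is scattered over the genome (RefSeq and GENCODE mouse release 21, GRCm38). let-7a-5p, let-7c-5p and let-7f-5p are each encoded by 2 hairpins, whose reads cannot be told apart. Mirlet7a-1, Mirlet7f-1 and Mirlet7d lie together on chromosome 13, in exons of the lincRNA 6720427I07Rik. Mirlet7c-2 and Mirlet7b lie 621 bases apart on chromosome 15, in exons of the transcript Lncppara. Mirlet7f-2 and Mir98 lie 785 bases apart on chromosome X, in an intron of Huwe1. Mirlet7e (chr17:17830352-17830444, plus strand) lies in an intron of Spaca6, 94 bases from Mir99b and 367 bases from Mir125a, and Mirlet7c-1 and Mirlet7a-2 lie near Mir99a and Mir100. Mirlet7g lies in an intron of Wdr82 and Mirlet7i in an exon of the pseudogene D630033A02Rik.

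The deposited values were signals, that is reads divided by 1 number per library, and reads were recovered from them. The 6 prepuberal libraries held between 7075528 and 13397407 reads on listed miRNAs and TAD 1628770, and levels are given as CPM, reads scaled to the same total (parts per 1000000) in each library. CPM is a share, and 2 miRNAs outside the family took most of it, as miR-10b-5p held 31.2% (TAD) to 54.4% (T6-12K) and miR-143-3p 10.4% (T6) to 25.8% (TAD). For this reason the ratios of the family sum, and those of the members the results turn on, are also given under 5 other scalings. Levels and their order are in CPM unless another scaling is named, and 49 of 330 ratios of single members had another sign under another scaling than in CPM. All 6 miRNAs of a gonad list were above 0 in every library, with a summed level from 7871.5 CPM in T6-12K to 45415 CPM in TAD, so the testis named on the labels was not contradicted. Those of a meiotic and haploid germ cell list (6 arms of miR-34b, miR-34c, miR-449a and miR-449c, 1 of them at 0 in T6) summed to 74.0 CPM in T6, 164 in T10, 614 to 1972 in the cultures and 25799 in TAD. In bulk tissue, fewer cells of a type and less miRNA per cell cannot be told apart.

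Summed over its 9 members of the 5p arm, the family took 15.1% of the miRNA reads in T6, with 2021261 reads. It took 9.09% in T10 and 6.48% in TAD. Among the cultures its share was 6.39% for T6-12K, 9.24% for T6-12A, 7.98% for T10-12K and 7.28% for T10-12A. T6 thus stood above the other 6 libraries, which lay within a range of 6.39% to 9.24%. The order by CPM was T6, T6-12A, T10, T10-12K, T10-12A, TAD and T6-12K. The 95% counting intervals of neighbours in this order did not overlap, but they were close for T6-12A (9.22% to 9.26%) and T10 (9.08% to 9.11%) and for TAD (6.44% to 6.52%) and T6-12K (6.37% to 6.40%), and with 1 library each their order cannot be set against any spread between animals. T6 was first in all 6 scalings. TAD was last in 5 of them, the exception being CPM, where T6-12K was last. These 5 include reads with no scaling, which carry the low depth of TAD.

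**Figure D1:**
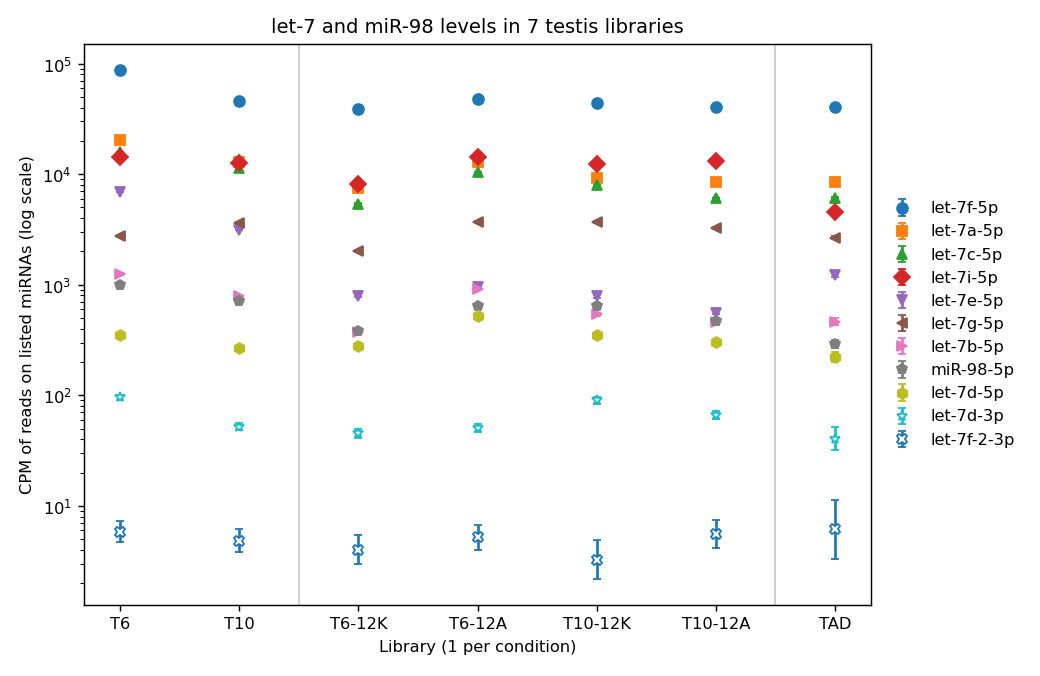
Level of each of the 11 let-7 and miR-98 miRNAs (CPM of the reads on listed miRNAs, logarithmic axis) in the 7 libraries, 1 library per condition; filled symbols are 5p arms, open symbols 3p arms, and bars are 95% Wilson intervals for counting error only. let-7f-5p leads every library, and let-7e-5p drops from 6948 CPM in T6 to between 557 and 959 CPM in the 4 cultures.

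Within the family, let-7f-5p was the most abundant member in every library and ranked 3 among all miRNAs in T6. Its level was 88240 CPM for T6, 45639 for T10 and 40872 for TAD among the uncultured testes, and 38840 for T6-12K, 48118 for T6-12A, 44337 for T10-12K and 40096 for T10-12A among the cultures. Its level in T6 was 1.93-fold that in T10 in CPM, and T10, TAD and the cultures lay close together on this scale only. The log2 ratio of the 10.5 dpp cultures to T10, -0.11 in CPM, was 0.65 with the trimmed mean of M-values (TMM), a scaling that takes most miRNAs as unchanged, and -0.91 with no scaling. let-7a-5p, the member identical to the let-7 of nematodes, was measured at 20544 CPM for T6, 12831 for T10, 7567 for T6-12K, 12966 for T6-12A, 9276 for T10-12K, 8521 for T10-12A and 8442 for TAD. let-7c-5p followed it with 15869, 11307, 5415, 10395, 7921, 6088 and 6028 CPM in the same libraries. Both were highest in T6 in all 6 scalings, and lowest in T6-12K in CPM but in TAD in the 5 others, which include reads with no scaling and so the low depth of TAD.

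let-7i-5p, the member with the most differences from let-7a-5p, had another profile. The uncultured testes gave 14313 CPM (T6), 12623 CPM (T10) and 4586 CPM (TAD), and the cultures 8209 CPM (T6-12K), 14143 CPM (T6-12A), 12304 CPM (T10-12K) and 13023 CPM (T10-12A). It was thus lowest in the adult in CPM, like miR-98-5p and let-7d-5p. Its log2 ratio of TAD to the mean of T6 and T10 was -1.55 (95% counting interval -1.59 to -1.52). This ratio was -1.37 with median-of-ratios size factors, -2.25 as deposited and between these in the other scalings. For reads with no scaling it was -4.59, which carries the low depth of TAD. For the 10.5 dpp cultures to T10 its log2 ratio was 0.00 in CPM, but -0.31 as deposited, -0.78 with no scaling and 0.38 to 0.77 in the other 3 scalings, so no direction can be given. The share of let-7i-5p in the family was above that of let-7a-5p in all 4 cultures, with 12.9%, 15.3%, 15.4% and 17.9% in T6-12K, T6-12A, T10-12K and T10-12A, against 9.46% in T6, 13.9% in T10 and 7.08% in TAD.

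let-7e-5p varied most. From 92848 reads in T6 and 41916 in T10, its level was 6948 CPM for T6, 3129 for T10 and 1221 for TAD, against 789 for T6-12K, 959 for T6-12A, 784 for T10-12K and 557 for T10-12A. All 4 cultures lay below all 3 uncultured testes in CPM, and let-7e-5p was the only 1 of the 9 members of the 5p arm for which this held, beside 26.6% of all 331 miRNAs. Under the 5 other scalings TAD no longer stood above every culture and none of the 9 members lay below all uncultured testes, so the separation of let-7e-5p from the adult depends on the scaling, whereas that from the starting testes does not. Of all 331 miRNAs, 70 lay below as deposited, 45 with median-of-ratios size factors and 32 with TMM. In CPM without miR-10b-5p and miR-143-3p 51 did, and 3 with no scaling. Other members separated the opposite way, as let-7i-5p, let-7g-5p and let-7d-5p lay higher in all cultures than in all uncultured testes with median-of-ratios size factors and with TMM, and let-7i-5p and let-7d-5p did so in CPM without miR-10b-5p and miR-143-3p. Of all 331 miRNAs, 37, 44 and 28 lay higher in these scalings, in the order named. The 6.5 dpp cultures were 7.95-fold below T6 (log2 ratio -2.99, 95% counting interval -3.01 to -2.97) and the 10.5 dpp cultures 4.67-fold below T10 (log2 ratio -2.22, -2.25 to -2.19). Over the 6 scalings these log2 ratios ranged from -3.35 to -2.22 and from -3.03 to -1.46. T10 was already 2.22-fold below T6. Of the 121 miRNAs whose mean level was 100 CPM or more, none had a lower T10 to T6 ratio than let-7e-5p, 1 had a lower ratio of the 6.5 dpp cultures to T6 and 3 had a lower ratio of the 10.5 dpp cultures to T10.

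The 4 remaining members of the 5p arm were less abundant. let-7g-5p was measured at 2749 CPM for T6, 3646 for T10, 2025 for T6-12K, 3719 for T6-12A, 3657 for T10-12K, 3283 for T10-12A and 2649 for TAD. It was the only member of the 5p arm that was higher in T10 than in T6, with a log2 ratio of 0.41 in CPM and 0.17 to 0.50 in the other scalings. let-7b-5p, which differs from let-7c-5p at 1 position, ranged from 370 CPM in T6-12K to 1247 in T6. miR-98-5p ranged from 292 CPM in TAD to 988 in T6. let-7d-5p was the least abundant, with 354 CPM for T6, 270 for T10, 277 for T6-12K, 522 for T6-12A, 352 for T10-12K, 306 for T10-12A and 220 for TAD, and so had its highest level in a culture rather than in T6 on this scale. Only 358 reads stood behind its value in TAD.

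Shares within the family do not depend on how libraries are scaled. let-7f-5p made up 50.2% (T10) to 63.1% (TAD) of the reads of the 5p arm, let-7a-5p 11.6% to 14.1% and let-7c-5p 8.36% to 12.4%. Counted as 1, these members held between 75.1% (T10-12A) and 85.4% (TAD). The share of let-7e-5p moved most, over a 6.00-fold range, from 4.59% for T6, 3.44% for T10 and 1.88% for TAD to 1.23% for T6-12K, 1.04% for T6-12A, 0.98% for T10-12K and 0.765% for T10-12A. By this measure, too, each culture lay below each uncultured testis. let-7g-5p had its lowest share in T6 (1.82%) and its highest in T10-12K (4.58%), and let-7d-5p rose from 0.234% in T6 to 0.565% in T6-12A. The share of miR-98-5p was lowest in TAD (0.450%) and that of let-7b-5p in T6-12K (0.580%).

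**Figure D2:**
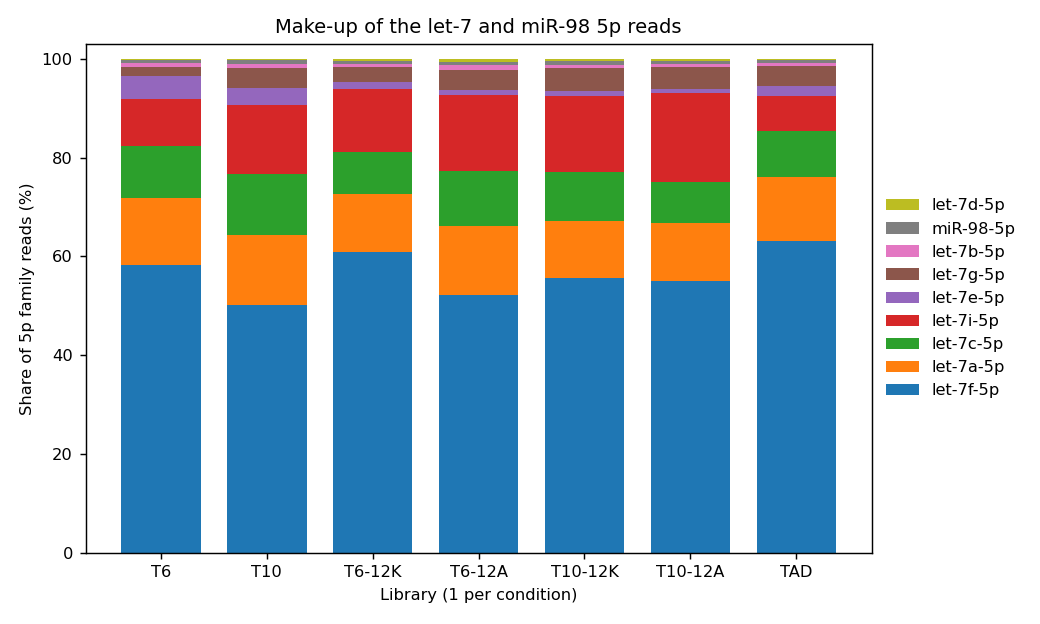
Share of each member in the reads of the 9 members of the 5p arm (percent, bars stacked to 100) in the 7 libraries, 1 per condition. let-7f-5p fills between 50.2% and 63.1% of each bar, and let-7i-5p is widest in T10-12A (17.9%) and narrowest in TAD (7.08%). The band of let-7e-5p is 4.59% in T6, 3.44% in T10 and at most 1.23% in the cultures.

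The uncultured testes differ in age, with 1 library each. Between them the family sum had a log2 ratio of -0.73 for T10 to T6 in CPM and between -0.97 and -0.64 in the other scalings. A member was counted as lower or higher where it passed 2-fold against every library of the other side. One of 9 members was lower in T10 (let-7e-5p) and 0 were higher, beside 4.23% and 10.9% of all miRNAs, and the median of the 9 members was -0.49 beside -0.05 over all 331. In TAD against T6 and T10 the sum had a log2 ratio of -0.90, and between -3.94 and -0.72 in the other scalings. There, 3 of 9 members were lower (let-7i-5p, let-7e-5p and miR-98-5p) and 0 were higher, beside 30.2% and 17.2% of all miRNAs. Of the 121 miRNAs whose mean level was 100 CPM or more, as it was for all 9 members, 21.5% were lower, so the count of members was close to the share over all miRNAs and above that over the abundant ones. The median of the members was -1.14 beside -0.41 over all miRNAs, and all 9 were below the prepuberal mean under each scaling. With no scaling this, like the -3.94 of the sum, carried the low depth of TAD, as the median over all miRNAs was -3.45 there. T6 and T10 enter both this comparison and those with the cultures.

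In the 6.5 dpp cultures against T6 the sum had a log2 ratio of -0.95 in CPM, with -1.24 for T6-12K and -0.71 for T6-12A alone. One of 9 members was lower (let-7e-5p) and 0 were higher, beside 32.0% and 8.16% of all miRNAs and 16.5% and 9.92% of the 121 abundant ones. The median of the members, -0.96, was near that of all miRNAs, -0.93, but below that of the 121 abundant ones, -0.53. With TMM the median of all miRNAs moved to -0.17, that of the members to -0.25 and the ratio of the sum to -0.20. The 10.5 dpp cultures had a log2 ratio of the sum to T10 of -0.25 in CPM, which turned to 0.12, 0.31 and 0.51 in 3 of the other scalings. Again 1 of 9 members was lower (let-7e-5p) and 0 were higher, beside 32.3% and 7.85% of all miRNAs, with medians of -0.35 and -0.76. The median of the 121 abundant miRNAs was -0.51. In CPM 7 of 9 members were below T10, but with TMM 1 was below, let-7e-5p. The median over all 331 miRNAs moved as well, from -0.76 in CPM to 0.002 with TMM, and the share of all miRNAs below T10 was not counted. A change of the family as a whole in the 10.5 dpp cultures therefore had no direction that held over the scalings, and the fall of let-7e-5p did.

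**Figure D3:**
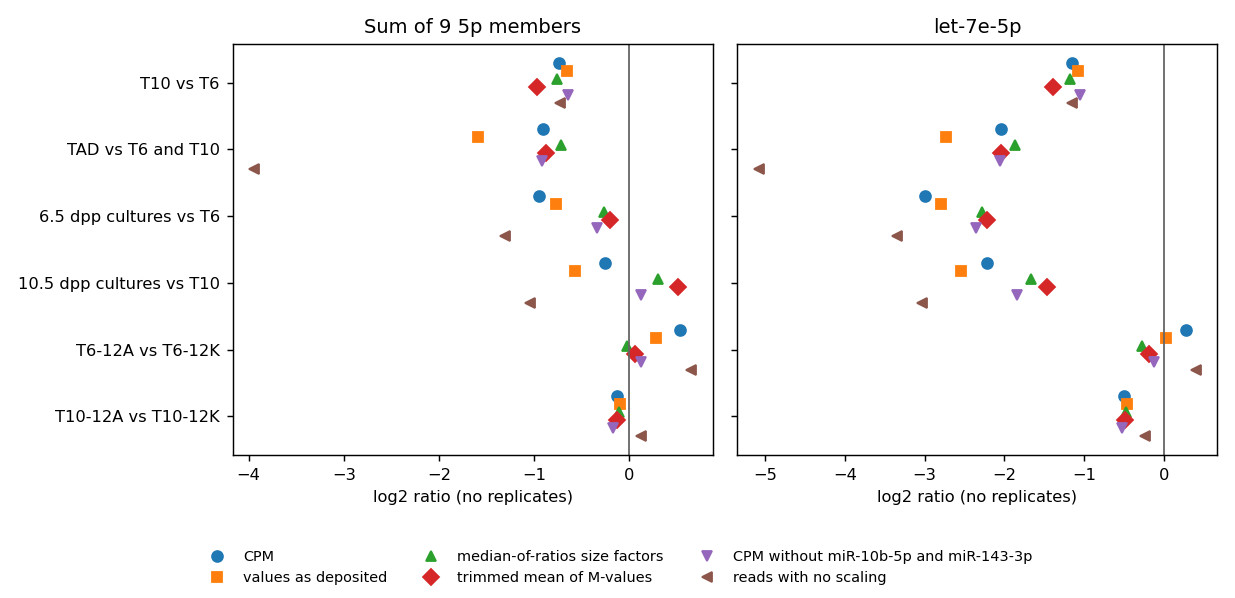
log2 ratio of the summed 5p arm (left) and of let-7e-5p (right) in 6 comparisons of libraries, with 1 symbol for each of 6 scalings and a line at 0; no comparison has replicates. The sum changes sign with the scaling for the 10.5 dpp cultures (-1.05 to 0.51), while let-7e-5p lies at or below -1.46 for both starting ages of the cultures in all 6 scalings.

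The supplements were compared at each starting age. At 6.5 dpp the sum in AlbuMAX I to that in KSR had a log2 ratio of 0.53 in CPM, which ranged from -0.02 to 0.65 in the other scalings. All 9 members were higher in T6-12A than in T6-12K in CPM, and 7 of 9 in 3 of the other scalings. In those 3 the median over all 331 miRNAs was 0.06, 0.15 and 0.21. In CPM 1 member passed 2-fold (let-7b-5p, log2 ratio 1.30) and 0 were lower, beside 26.6% and 5.74% of all miRNAs. The medians in CPM were 0.78 for the members and 0.62 for all miRNAs. At 10.5 dpp the sum had a log2 ratio of -0.13, turning to 0.12 for reads with no scaling, 0 members passed 2-fold in either direction, beside 5.44% of all miRNAs lower and 5.44% higher, and the medians were -0.20 and -0.07.

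let-7e-5p could also be set against the miRNAs of the same cluster, miR-99b-5p and miR-125a-5p, whose ratio within a library needs no scaling. For each 100 reads of miR-99b-5p there were 20.5 reads of let-7e-5p in T6, 11.4 in T10 and 16.1 in TAD. In the cultures there were 4.75 (T6-12K), 5.07 (T6-12A), 3.45 (T10-12K) and 2.36 (T10-12A). For each 100 reads of miR-125a-5p the numbers were 62.7, 31.6 and 29.6 in T6, T10 and TAD and 12.0, 8.62, 10.7 and 5.81 in the cultures. Against either neighbour all cultures lay below all uncultured testes, over an 8.68-fold and a 10.8-fold range, while the ratio of miR-99b-5p to miR-125a-5p stayed within a 1.83-fold range. In the adult, let-7e-5p had a log2 ratio of -2.05 to the mean of T6 and T10, which was -2.51 to T6 and -1.36 to T10 alone, and miR-99b-5p had -2.02, with -2.16 and -1.86. miR-125a-5p fell less, with -1.35 to the mean, -1.43 to T6 and -1.26 to T10. Beyond this cluster, the ratio of let-7c-5p to miR-99a-5p covered a 2.92-fold range and that of let-7a-5p to miR-100-5p a 4.72-fold range, both highest in T6 and lowest in T10-12A. let-7c-5p and let-7a-5p each have a second hairpin without such a neighbour. Of the 5 neighbour miRNAs (miR-99a, miR-99b, miR-100, miR-125a and miR-125b, 5p arms), 0 were 2-fold lower in the cultures of either age and 2 in TAD in CPM. Beside these, 32.0% (6.5 dpp cultures), 32.3% (10.5 dpp cultures) and 30.2% (TAD) of all miRNAs were lower. With no scaling 1 neighbour was lower in the 6.5 dpp cultures and 5 in TAD, and as deposited 3 were lower in TAD. The median log2 ratio over all 331 miRNAs was -1.29, -3.45 and -1.12 there, in the order named. The share of all miRNAs past the fold was not counted in these settings, so these counts are no result about the neighbours.

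**Figure D4:**
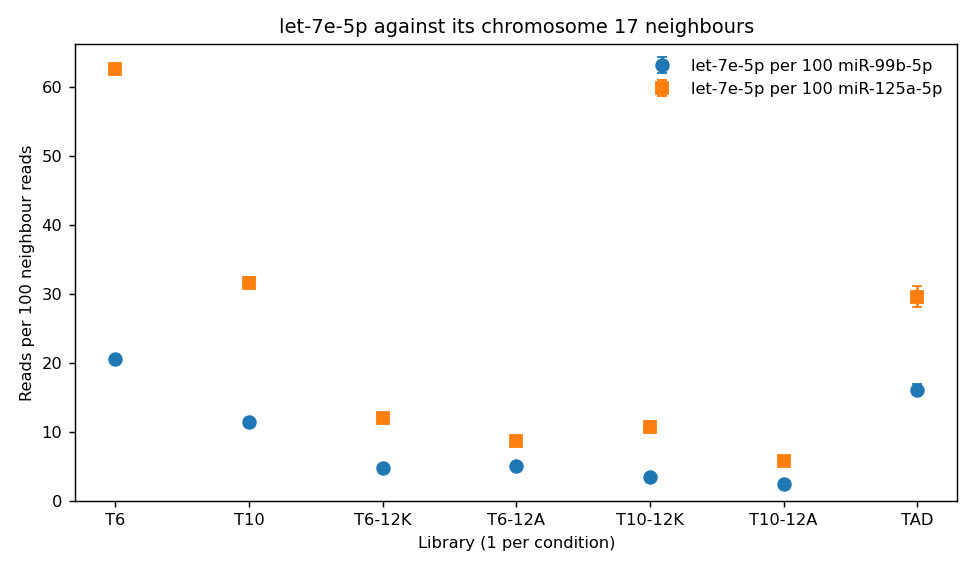
Reads of let-7e-5p for each 100 reads of its chromosome 17 neighbours miR-99b-5p and miR-125a-5p in the 7 libraries, 1 per condition, with 95% counting intervals. The 4 cultures lie at 2.36 to 5.07 and 5.81 to 12.0, below the uncultured testes at 11.4 to 20.5 and 29.6 to 62.7.

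The 3p arms were listed for 2 hairpins. In the Mirlet7d hairpin (chr13:48536012-48536114, minus strand, RefSeq, GRCm38.p6), the capitals mark the 5p arm first and the 3p arm second.
Mirlet7d: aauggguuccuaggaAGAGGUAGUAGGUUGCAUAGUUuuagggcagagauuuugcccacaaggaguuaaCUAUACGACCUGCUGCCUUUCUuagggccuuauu
let-7d-3p made up 21.4% of the reads of both arms in T6 (95% Wilson interval 20.3% to 22.4%), 16.1% in T10 and 15.6% in TAD (12.4% to 19.3%, from 66 reads). In the cultures this share was 14.0% for T6-12K, 8.86% for T6-12A (8.18% to 9.59%), 20.3% for T10-12K and 17.7% for T10-12A. T6-12A was therefore lowest, beyond counting error. It was also the library with the highest level of let-7d-5p, whose reads are part of the total behind this share, so these are not separate results. let-7f-2-3p stayed at 10 to 78 reads per library, between 0.0066% and 0.015% of the reads of let-7f, and differences in its level were not detectable at this depth in the 6 comparisons except between the 10.5 dpp cultures, where the log2 ratio of T10-12A to T10-12K was 0.77 (0.05 to 1.49).

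Outside the family, the miRNAs whose profile over the 7 libraries was most like that of the sum, by the root mean square difference of centred log2 CPM, were miR-199b-3p (0.231), miR-199a-3p (0.233), miR-151-3p (0.240), miR-320-3p (0.245) and miR-125b-2-3p (0.250), from 112 miRNAs whose mean level was 100 CPM or more. Of the members, which are part of the sum, let-7f-5p (0.109), let-7a-5p (0.116) and let-7c-5p (0.195) were nearer than any of these, and let-7e-5p (0.906) was farther than 77 of the 112. None of the other matched miRNAs carried the same seed, and 2 differed from it at 1 position. miR-672-5p (A7U) gave 618 CPM for T6, 367 for T10 and 87.2 for TAD, and 82.9, 159, 108 and 69.2 CPM for T6-12K, T6-12A, T10-12K and T10-12A. Like let-7e-5p it was thus highest in T6, second in T10 and lowest in T10-12A. miR-202-3p (G8U), a gonad miRNA, was rare, with 6.57 CPM in T10 to 31.9 CPM in TAD.

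The summed levels of the cell type lists moved with some of these values. A mesenchymal and smooth muscle list (5 of 5 listed, none at 0, led by miR-143-3p) summed to 106268 CPM in T6, 148102 in T10, 158388 to 213930 in the cultures and 259014 in TAD, and so was lowest where the family was highest. Most of this sum was miR-143-3p, which held 10.4% of the miRNA reads in T6 and 25.8% in TAD. miR-199a-3p of the same list went the other way, with 1932 CPM in T6 and 713 in TAD, so the list did not move as 1. An erythroid list (3 of 3 listed) had 2 members at 0 in all 4 cultures and none at 0 in the uncultured testes, the same split of libraries as let-7e-5p in CPM, and it summed to 445 to 2554 CPM in the former and 1109 to 1688 in the latter. The sum of the erythroid list did not split in this way, as it was highest in T6-12K, a culture. The leukocyte (2 of 4 listed, 5.54 to 45.4 CPM), endothelial (2 of 2, 124 to 405 CPM) and epithelial (5 of 6, 104 to 401 CPM) lists were rare. The part of germ cells, mesenchymal cells and blood in the family's levels was not tested, and with 1 library per condition culture, age and cell make-up cannot be told apart.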

How the data were processed

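Small RNAs of 7 testis libraries, 1 per condition, were sequenced. The authors trimmed adaptors, checked reads with FastQC, aligned them with Bowtie to mm10 and then to miRBase 21, piRBase and Ensembl non-coding RNAs, discarded miRNAs with few reads and deposited 1 signal per miRNA and library. The submitters' processing notes also name HTSeq and DESeq, without role or version. The 7 sample tables equalled the series table.

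The signals were multiples of 1 number per library, and dividing by it gave reads, of which 100% below 10000 were whole (within 0.1 reads). The smallest value above 0 was 5 reads (7 in T10). In 35 simulated libraries of 331 miRNAs, at least 99.7% of read numbers were recovered. CPM was the main scaling, with 95% Wilson intervals for shares and log-scale intervals for ratios. No p-value was computed, since no condition had a replicate. The other 5 scalings were the values as deposited, median-of-ratios size factors, effective library sizes from trimmed M-values (TMM, trimming 30% by M and 5% by A), CPM without miR-10b-5p and miR-143-3p, and reads with no scaling. Named were all members, 5 neighbours in known clusters, seed relatives and the 5 nearest profiles. The members and lists were chosen with earlier results of these data known. Scripts ran under Python 3.11.15 with scipy 1.17.1, pandas 2.3.3 and numpy 2.4.6, and plots were drawn with matplotlib 3.10.9. RT-qPCR, piRNAs and cytology were not analysed here.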

Additional observations from a re-analysis of the deposited data

Results flagged for a closer look

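The AlbuMAX I to KSR log2 ratio was positive in the 6.5 dpp cultures and negative in the 10.5 dpp cultures for the family sum and 8 of the 9 members of the 5p arm, let-7i-5p being the exception. With 1 library per condition the difference between the ages was not tested, and 62 of the 121 miRNAs whose mean level was 100 CPM or more also had opposite directions. Subtracting the ratio of the older explants from that of the younger gave 0.67 for the sum, 0.45 for let-7f-5p, 0.90 for let-7a-5p, 1.32 for let-7c-5p, 0.78 for let-7e-5p, 1.03 for let-7g-5p, 1.53 for let-7b-5p, 1.21 for miR-98-5p and 1.12 for let-7d-5p. The directions were opposite in all 5 other scalings for let-7c-5p and miR-98-5p, in 4 for let-7a-5p, let-7g-5p, let-7b-5p and let-7d-5p, in 3 for the sum, in 2 for let-7e-5p and in 1 for let-7f-5p. In the cultures against their starting testes, let-7d-3p was lower at 6.5 dpp (log2 ratio -1.003) and higher at 10.5 dpp (0.59), a difference of -1.59 that was not tested and whose directions were opposite in 4 of the 5 other scalings.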

How the results depend on the processing

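With 1 library per condition no replicate could be left out, and no paired analysis was possible because no result comes from a test. Every log2 ratio of the family sum moved by more than its counting interval in all 6 alternatives. The 5 other scalings apply another factor per library, or none, to the same reads, and the last alternative leaves let-7f-5p out of the sum. The values follow the order T10 to T6, TAD to T6 and T10, 6.5 dpp cultures to T6, 10.5 dpp cultures to T10, T6-12A to T6-12K and T10-12A to T10-12K. They were -0.66, -1.59, -0.77, -0.57, 0.28 and -0.10 for the values as deposited and -0.76, -0.72, -0.27, 0.31, -0.024 and -0.11 with median-of-ratios size factors. They were -0.97, -0.88, -0.20, 0.51, 0.062 and -0.13 under TMM, the trimmed mean of M-values, and -0.64, -0.92, -0.34, 0.12, 0.12 and -0.17 in CPM without miR-10b-5p and miR-143-3p. They were -0.73, -3.94, -1.31, -1.05, 0.65 and 0.12 for reads with no scaling, which carries the low depth of TAD, and -0.48, -1.18, -0.86, -0.41, 0.82 and -0.12 without let-7f-5p. Counts of members past 2-fold moved as follows. The share of all miRNAs past the fold was not counted for these settings or at 1.5-fold, so these counts are no result about the family. In T10, 2 were lower with the trimmed mean of M-values, where the median log2 ratio over all 331 miRNAs was -0.29. In TAD, 7 were lower as deposited and 9 with no scaling, where that median was -1.12 and -3.45. With no scaling, 2 were lower in the 6.5 dpp and 5 in the 10.5 dpp cultures, where it was -1.29 and -1.55. In T6-12A, 0 were higher with median-of-ratios size factors, 0 with the trimmed mean of M-values, 0 in CPM without miR-10b-5p and miR-143-3p, and 3 with no scaling. At 1.5-fold, 4 were lower in T10, 6 in TAD and 5 in the 6.5 dpp cultures, and 7 were higher in T6-12A. The leading share of 50.2% to 63.1% became 75.1% to 85.4% with let-7a, let-7c and let-7f as 1. Of 330 single-member ratios under other scalings, 281 kept the sign they had in CPM and 49 did not, 0 of them 2-fold in CPM. Limiting the table to a mean of 100 CPM kept all 9 members, and since none was at 0, another value at 0 could not change the shares of the arms.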
